A study of Mus with 8 samples.

Results

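Genes of the IL-4 driven alternative activation programme were followed across all 8 RNA-seq libraries of mouse bone marrow monocytes grown in stiff hydrogels. The group holds 10 genes, given as a list of Ensembl IDs with their symbols, of 17640 IDs in the count table. The enzymes and secreted proteins are Arg1 (ENSMUSG00000019987), Chil3 (ENSMUSG00000040809), Retnla (ENSMUSG00000061100), Alox15 (ENSMUSG00000018924) and Tgm2 (ENSMUSG00000037820). The lectin receptors are Mrc1 (ENSMUSG00000026712), Clec10a (ENSMUSG00000000318) and Mgl2 (ENSMUSG00000040950), and Pdcd1lg2 (ENSMUSG00000016498) and Egr2 (ENSMUSG00000037868) complete the list. The rule uses no measured value, though the list was drawn up with earlier results of these data known. The low-count filter kept 14785 of the 17640 IDs, among them all 10 genes. Alox15 passed it through the Jak2 V617F libraries and would not pass in the 4 control libraries alone, so it is left out of the counts and medians over the list, which cover the other 9 genes.

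The 4 groups, of 2 libraries each, were Jak2 V617F Vav-iCre cells in elastic matrix, Jak2 V617F Vav-iCre cells in viscous matrix, Vav-iCre control cells in elastic matrix and Vav-iCre control cells in viscous matrix. Mice were of strain C57BL/6 and ages are not given. Vav-iCre drives recombination in blood-forming cells, and the controls carry the same Cre. The Jak2 allele is a knock-in at the endogenous gene and a model of myeloproliferative neoplasm, a clonal excess of blood cells. Every group was cultured to day 3 with IL-4 (200 ng/mL), GM-CSF (100 ng/mL) and PGE2 (100 ng/mL). No library without IL-4 was analysed here, so the values below compare IL-4-treated cells with each other and do not measure induction by IL-4. Each title ends in a number, and each number occurs once in each matrix. The Jak2 V617F numbers are called J1 and J2 here and the control numbers W1 and W2, each in ascending order. What the number stands for is not stated. A p-value here therefore rests on the spread between the 2 libraries of a group, pooled over all groups of the fit. In comparisons within Jak2 V617F cells it thus includes the spread of the control libraries. Whether the 2 libraries of a group were separate mice or cultures is not known.

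IL-4 binds a receptor on myeloid cells whose kinases activate the transcription factor STAT6, and STAT6 switches on a set of genes that marks alternatively activated macrophages. GM-CSF with IL-4 is also the usual medium for growing dendritic cells from bone marrow. The set includes enzymes and secreted proteins (Arg1, Chil3, Retnla), endocytic C-type lectin receptors (Mrc1, Clec10a, Mgl2), an immune inhibitory ligand (Pdcd1lg2) and the transcription factor Egr2. Agents that raise cyclic AMP, as PGE2 does, are known to raise Arg1 further in IL-4-treated macrophages. JAK2, the mutated kinase, carries the signal of the GM-CSF receptor.

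Levels are CPM, the count of a gene per 1000000 counts of its library after TMM scaling of the totals, and are compared between libraries for 1 gene at a time. They are not corrected for gene length, so no gene is ranked against another by level. Library totals lay between 30632355 and 38408851 counts, and the 10 genes together held 0.66% to 1.47% of them. The control pair numbered W1 stood apart from the other 6 libraries on the first principal component of all tested genes, at 69.4 and 78.1 against −37.1 to −10.9. Results that rest on this pair are therefore given with and without it. The cells are labelled monocytes. Marker genes of monocytes and of other cell types were not analysed here, because the IDs carry no names. In these bulk libraries, fewer cells of a type and less RNA per cell cannot be told apart.

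Of the 10 genes Mrc1 varied most over the 8 libraries (SD of log2 CPM 1.81), and most of that spread lay between the control libraries. Mrc1, the mannose receptor, which takes up glycoproteins, stood at 46.9 CPM (J1) and 43.2 CPM (J2) in Jak2 V617F cells in elastic matrix and at 66.1 and 54.9 CPM in viscous matrix. In control cells it stood at 777.6 CPM (W1) and 46.3 CPM (W2) in elastic matrix and at 565.2 and 28.6 CPM in viscous matrix. The control libraries numbered W1 were thus far above the other 6, and the control libraries numbered W2 lay within or below the range of the Jak2 V617F libraries. Between the control libraries the ratio of W1 to W2 was 16.8 in elastic and 19.8 in viscous matrix. Within the Jak2 V617F groups the higher library was 1.09 times the lower in elastic and 1.20 times in viscous matrix.

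Clec10a, a galactose-binding lectin of macrophages and dendritic cells also known as Mgl1, differed between the genotypes without overlap. It stood at 47.7 CPM (J1) and 55.3 CPM (J2) in Jak2 V617F cells in elastic matrix and at 74.9 and 103.2 CPM in viscous matrix. Control cells had 301.6 CPM (W1) and 104.1 CPM (W2) in elastic matrix and 197.3 and 133.2 CPM in viscous matrix. All 4 Jak2 V617F libraries were below all 4 control libraries, although the nearest libraries of the genotypes, 103.2 and 104.1 CPM, nearly met. Mgl2, its close paralog, stood at 52.2 and 56.8 CPM in Jak2 V617F cells in elastic matrix and at 125.9 and 54.8 CPM in viscous matrix. Control cells had 189.6 CPM (W1) and 44.1 CPM (W2) of Mgl2 in elastic matrix and 168.6 and 55.3 CPM in viscous matrix. For Mgl2 the genotypes overlapped, with both W1 libraries at the top. Reads from these paralogs may be divided between them by estimation, so their separate values are uncertain.

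Tgm2, a transglutaminase that crosslinks proteins, ran the other way. It stood at 1173 CPM (J1) and 1044 CPM (J2) in Jak2 V617F cells in elastic matrix and at 1185 and 1016 CPM in viscous matrix. Control cells had 123.8 CPM (W1) and 818.5 CPM (W2) in elastic matrix and 148.0 and 709.2 CPM in viscous matrix. Every Jak2 V617F library was above every control library. The 2 control libraries numbered W1, high for Mrc1, were the lowest for Tgm2, at 0.15 and 0.21 times the level of W2 in elastic and viscous matrix.

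**Figure D1:**
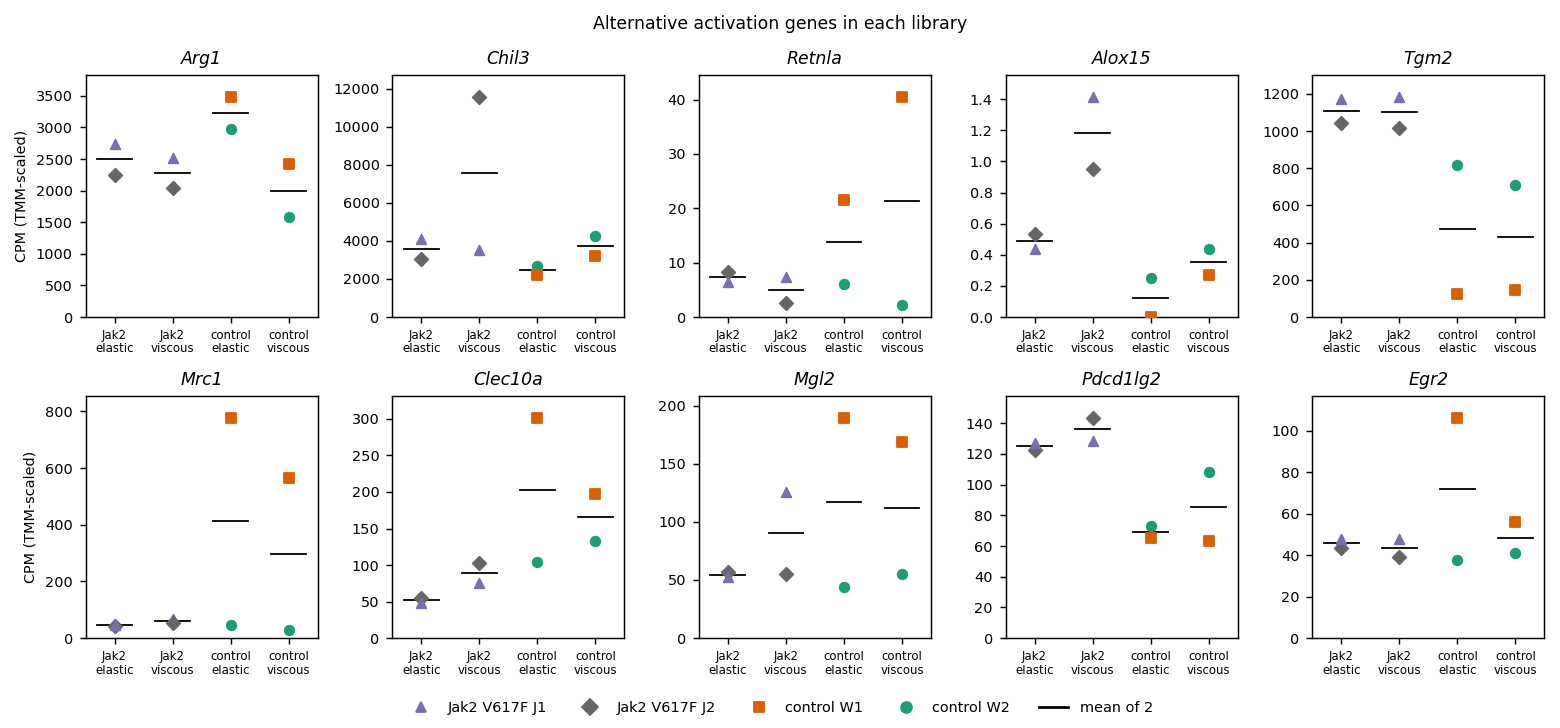
TMM-scaled CPM (linear axis from 0, a separate scale for each gene) of the 10 genes in every library, by genotype and matrix. Symbols mark the title number and the black line is the mean of the 2 libraries of a group. The control libraries numbered W1 are far above the rest for Mrc1 and lowest for Tgm2, and Pdcd1lg2 is higher in all 4 Jak2 V617F libraries than in all 4 control libraries.

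Pdcd1lg2, a ligand of an inhibitory receptor on T cells, differed between the genotypes without overlap and with the smallest SE of the 10 genes in each genotype comparison. It stood at 127.1 CPM (J1) and 122.7 CPM (J2) in Jak2 V617F cells in elastic matrix and at 128.6 and 143.6 CPM in viscous matrix. Control cells had 65.1 CPM (W1) and 73.2 CPM (W2) in elastic matrix and 63.1 and 108.3 CPM in viscous matrix. The 4 Jak2 V617F libraries lay above the 4 control libraries, and here W2 in viscous matrix was the control closest to them. In the RefSeq annotation of GRCm38.p6, Pdcd1lg2 (chr19:29410919-29472927) lies 97823 bases beyond Jak2 (chr19:29251803-29313095), the mutated gene, with 4 protein-coding genes between them. Whether this position bears on its level was not tested.

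Arg1, the enzyme that splits arginine into ornithine and urea, varied least of the 10 genes over the 8 libraries (SD of log2 CPM 0.35). It stood at 2744 and 2250 CPM in Jak2 V617F cells in elastic matrix (J1 and J2) and at 2511 and 2045 CPM in viscous matrix. Control cells had 3487 and 2973 CPM in elastic matrix (W1 and W2) and 2421 and 1577 CPM in viscous matrix. In control cells both elastic libraries were above both viscous ones, whereas in Jak2 V617F cells the matrices overlapped. The highest library was 2.21 times the lowest, and 41% of all tested genes varied more over the 8 libraries (SD of log2 CPM).

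Chil3, a secreted chitinase-like protein also called Ym1, had 1 library far from the rest. It stood at 4098 and 3046 CPM in Jak2 V617F cells in elastic matrix (J1 and J2) and at 3513 and 11584 CPM in viscous matrix. Control cells had 2225 and 2701 CPM in elastic matrix (W1 and W2) and 3233 and 4235 CPM in viscous matrix. The Jak2 V617F library numbered J2 in viscous matrix held 3.30 times the level of its replicate. In control cells both elastic libraries were below both viscous ones. A near-identical chitinase-like paralog exists in the mouse, so reads may be divided between them and the level of Chil3 is uncertain.

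Retnla, a secreted resistin-like protein also called Fizz1, was present at low levels. It stood at 6.40 and 8.24 CPM in Jak2 V617F cells in elastic matrix (J1 and J2) and at 7.34 and 2.61 CPM in viscous matrix. Control cells had 21.6 CPM (W1) and 6.01 CPM (W2) in elastic matrix and 40.5 and 2.24 CPM in viscous matrix. Both libraries numbered W1 were again at the top, and the control libraries numbered W2 lay within or below the Jak2 V617F range.

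Alox15, a lipoxygenase that oxidises polyunsaturated fatty acids, was close to the limit of detection, with 15 and 17 counts in Jak2 V617F cells in elastic matrix (J1 and J2) and 56 and 34 counts in viscous matrix. Control cells had 0 and 8 counts in elastic matrix (W1 and W2) and 10 and 14 counts in viscous matrix. Since it passed the low-count filter through the Jak2 V617F libraries, no test between the genotypes is given for it. The nearest libraries of the genotypes, at 0.437 CPM (Jak2 V617F) and 0.435 CPM (control), did not overlap but rested on 15 and 14 counts.

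Egr2, a zinc-finger transcription factor that IL-4 induces in macrophages, stood at 48.0 and 43.4 CPM in Jak2 V617F cells in elastic matrix (J1 and J2) and at 47.6 and 38.9 CPM in viscous matrix. Control cells had 106.2 CPM (W1) and 37.7 CPM (W2) in elastic matrix and 56.0 and 40.9 CPM in viscous matrix. The genotypes overlapped, and the libraries numbered W1 were the 2 highest.

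The difference between the control libraries was set beside that between the Jak2 V617F libraries for all 10 genes. In log2 units of W1 over W2, Mrc1 stood at 4.07 in elastic and 4.30 in viscous matrix, Retnla at 1.84 and 4.14, Mgl2 at 2.10 and 1.61, Clec10a at 1.53 and 0.57 and Egr2 at 1.49 and 0.45. Tgm2 stood at −2.72 and −2.26, and Arg1, Chil3 and Pdcd1lg2 between −0.78 and 0.62. Alox15 stood at −2.39 in elastic matrix, where W1 held 0 counts and the value depends on the prior count, and at −0.58 in viscous matrix. Of all 14785 tested genes, 0.683% in elastic and 0.548% in viscous matrix were at least as far apart as Mrc1 between these libraries, and 2.56% and 4.32% as far as Tgm2. For Retnla the shares were 6.5% and 0.622%, and for Mgl2 4.92% and 8.54%. For Arg1 the shares were 63.5% and 30.4%, and for Chil3 57.5% and 46.2%, so in elastic matrix most genes were at least as far apart and in viscous matrix most were closer. Between the Jak2 V617F libraries the log2 ratios of J1 over J2 lay between −0.36 and 0.43 for all 10 genes in elastic matrix. In viscous matrix they exceeded 1 in size for Chil3 (−1.72), Retnla (1.47) and Mgl2 (1.20). With 1 library per number and matrix these are values of single libraries and were not tested.

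**Figure D2:**
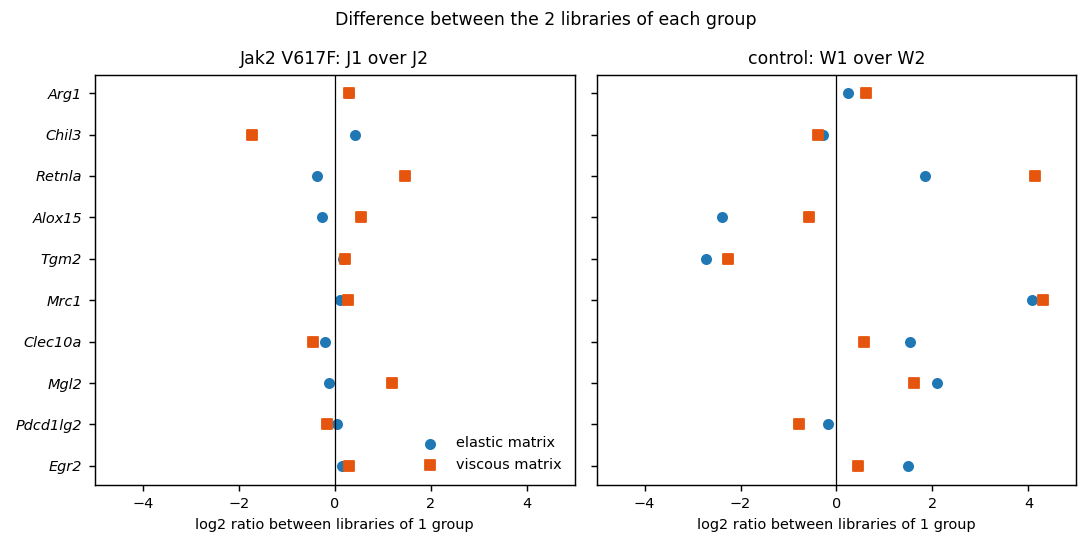
Log2 ratio of CPM between the 2 libraries of each group for the 10 genes, with Jak2 V617F (J1 over J2) on the left and control (W1 over W2) on the right. Circles are elastic and squares viscous matrix. Mrc1 lies above 4 in both control groups and below 0.3 in both Jak2 V617F groups, and Tgm2 lies below −2 in both control groups.

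The genotypes were compared to ask whether the mutation shifts the programme. With edgeR's quasi-likelihood test and Benjamini-Hochberg adjustment over all tested genes, called at an adjusted p under 0.05, 0 of 9 genes were called in elastic matrix, 0 of 9 in viscous matrix and 0 of 9 on counts summed per title number. The share of all genes called was 0% in each of these comparisons. By DESeq2, 1 of 9 was called in elastic matrix, where 0.298% of all genes were called, 0 of 9 in viscous matrix (0.413% of all genes) and 0 of 9 on sums (0.696% of all genes). At an unadjusted edgeR p under 0.05 the 9 genes gave 2 in elastic matrix (4.42% of all genes), 1 in viscous matrix (7.31%) and 2 on sums (5.22%). These were Clec10a and Pdcd1lg2 in elastic matrix and on sums, and Pdcd1lg2 in viscous matrix. These counts depended on the control number that stood for its genotype. Without W2, edgeR called 5 of 9 in elastic matrix (1206 of all genes), 5 of 9 in viscous matrix (771) and 7 of 9 on sums (2664), and without W1 it called 0 of 9 in each. Either fit keeps 1 control library per matrix, which is assumed to vary as the Jak2 V617F libraries do. In elastic matrix the Jak2 V617F libraries were above the control libraries without overlap for 3 genes, Chil3, Pdcd1lg2 and Tgm2 (17.2% of all genes), and below for 2, Arg1 and Clec10a (18.9%). In viscous matrix they were above for 2, Pdcd1lg2 and Tgm2 (18.6%), and below for 1, Clec10a (19%). Over both matrices the 4 against 4 libraries did not overlap for the same 3 genes, Pdcd1lg2 and Tgm2 (higher) and Clec10a (lower), where 3.5% of all tested genes were higher and 3.38% lower without overlap. The median log2 fold change of the 9 genes was −0.66 in elastic and −0.16 in viscous matrix and −0.40 on sums, against −0.01, −0.01 and 0.00 over all genes. In elastic matrix 3 genes had positive and 6 negative values, in viscous matrix 4 and 5, and on sums 3 and 6. Without the control pair numbered W1 the medians turned to 0.28 in elastic and 0.64 in viscous matrix and 0.53 on sums. Positive and negative values then numbered 6 and 3 in elastic matrix, 8 and 1 in viscous matrix, and 8 and 1 on sums. The negative medians thus rest on 1 of the 2 control numbers.

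Clec10a was 3.94-fold lower in Jak2 V617F than in control cells in elastic matrix (log2 fold change −1.98, SE 0.49, 95% interval −3.16 to −0.79, unadjusted p = 0.0059, adjusted p = 0.937 by edgeR). DESeq2 called this difference (log2 fold change −1.97, adjusted p = 0.0157). In viscous matrix it was 1.86-fold lower (−0.89, SE 0.48, 95% interval −2.04 to 0.26, edgeR adjusted p = 0.665). On sums, Jak2 V617F cells had 62.6 and 80.8 CPM and control cells 243.4 (W1) and 118.8 CPM (W2), a 2.53-fold difference (log2 fold change −1.34, SE 0.39, edgeR adjusted p = 0.792). Without the control pair numbered W1 the log2 fold change was −1.02 in elastic matrix, −0.58 in viscous matrix and −0.73 on sums. Leaving out the pair numbered W2 instead gave −2.54, −1.14 and −1.76.

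Pdcd1lg2 was 1.81-fold higher in Jak2 V617F than in control cells in elastic matrix (log2 fold change 0.85, SE 0.25, 95% interval 0.26 to 1.45, unadjusted p = 0.0119, adjusted p = 0.937 by edgeR). In viscous matrix it was 1.59-fold higher (0.67, SE 0.25, 95% interval 0.08 to 1.26, edgeR adjusted p = 0.664). On sums, Jak2 V617F cells had 128.6 and 134.0 CPM and control cells 63.6 (W1) and 90.9 CPM (W2), a 1.70-fold difference (0.77, SE 0.20, edgeR adjusted p = 0.792). Without the control pair numbered W1 the log2 fold changes were 0.77, 0.33 and 0.53. Leaving out the pair numbered W2 instead gave 0.95, 1.12 and 1.05.

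Tgm2 and Mrc1 had large fold changes with wide intervals. Tgm2 was 2.35-fold higher in Jak2 V617F cells in elastic matrix (log2 fold change 1.23, 95% interval −1.05 to 3.52) and 2.57-fold higher in viscous matrix (1.36, 95% interval −0.93 to 3.65), with edgeR adjusted p-values of 0.937 and 0.717. Without the control pair numbered W1 the Tgm2 log2 fold changes were 0.44 and 0.64, still higher in Jak2 V617F cells. Leaving out the pair numbered W2 instead gave 3.18 and 2.91. Mrc1 was 9.15-fold lower in Jak2 V617F cells in elastic matrix (−3.19, 95% interval −6.95 to 0.57) and 4.91-fold lower in viscous matrix (−2.29, 95% interval −5.92 to 1.33), with edgeR adjusted p-values of 0.937 and 0.707. Without the pair numbered W1 the Mrc1 log2 fold change was −0.04 in elastic matrix (edgeR adjusted p = 0.989) and turned to 1.08 in viscous matrix (0.301), higher in Jak2 V617F cells. Retnla turned in the same way, at −0.91 and −2.10 with all libraries and 0.28 and 1.15 without the pair (edgeR adjusted p = 0.989 and 0.492), and so did Mgl2, at −1.10 and −0.31 with all libraries and 0.31 and 0.71 without it (0.989 and 0.548). The low values of Mrc1, Retnla and Mgl2 in Jak2 V617F cells thus rest on 1 of the 2 control numbers.

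Summed per title number, Alox15 had 71 and 51 counts in Jak2 V617F cells and 10 (W1) and 22 counts (W2) in control cells. Arg1 had log2 fold changes of −0.37 in elastic and 0.19 in viscous matrix, with 95% intervals of −1.07 to 0.33 and −0.51 to 0.89. Chil3 stood at 0.54 and 1.02 with intervals of −0.77 to 1.84 and −0.30 to 2.33. Without the Jak2 V617F library numbered J2 in viscous matrix, the Chil3 value in viscous matrix was −0.08 (edgeR adjusted p = 0.981). Egr2 stood at −0.66 and −0.16 with intervals of −1.72 to 0.41 and −1.23 to 0.90, and without the control pair numbered W1 at 0.28 and 0.08.

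**Figure D3:**
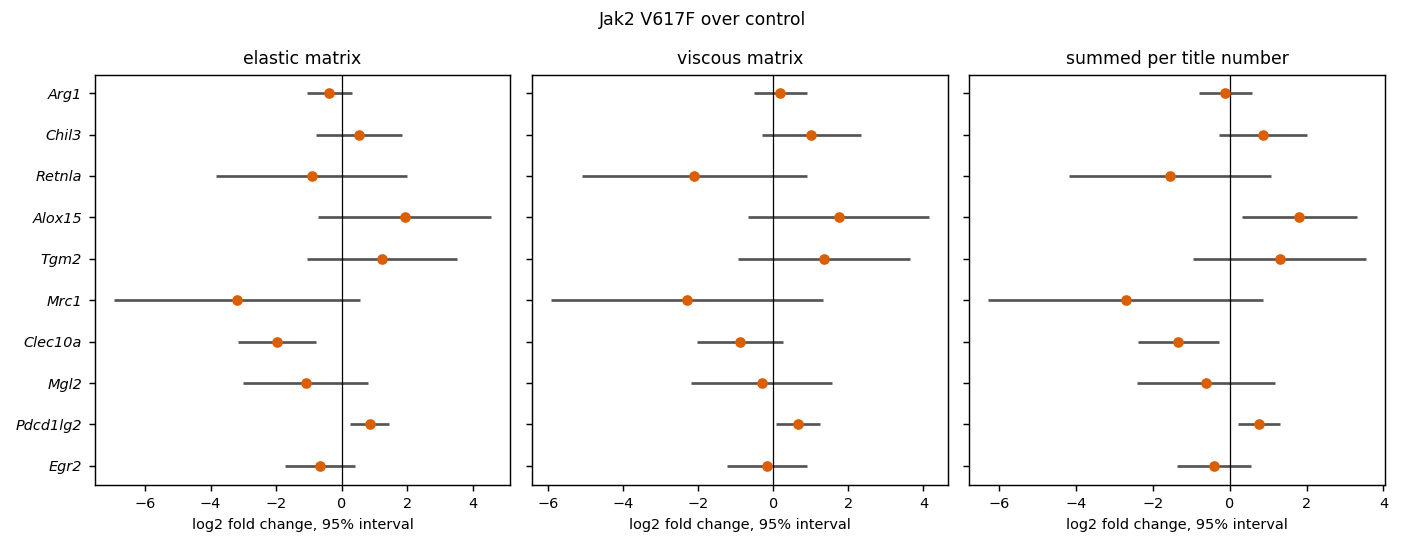
Log2 fold change of Jak2 V617F over control (points) with unadjusted 95% intervals (lines) for the 10 genes in elastic matrix, in viscous matrix and on counts summed per title number, from edgeR's fits to all genes. Intervals exclude 0 for Clec10a in elastic matrix and on sums, and for Pdcd1lg2 in all 3 comparisons, and 0 genes pass the adjusted threshold. Alox15, drawn with the rest, passed the low-count filter through the Jak2 V617F libraries, and nothing is read from its interval.

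Elastic was then compared with viscous matrix, the question the gels were built for. Both gels are described as stiff, and any further property that differs between them goes with elasticity in every comparison. edgeR called 0 of 9 genes in Jak2 V617F cells, 0 of 9 in control cells and 0 of 9 averaged over genotypes, and 0% of all genes in each. DESeq2 called 0 of 9 in each, where it called 0.237%, 0.237% and 0.906% of all genes. At an unadjusted edgeR p under 0.05 the 9 genes gave 0 in each comparison, against 3.08%, 4.85% and 6.28% of all genes. In Jak2 V617F cells 3 genes were lower in elastic matrix without overlap, Mrc1, Clec10a and Pdcd1lg2, where 20.6% of all genes were, and 0 were higher, where 19.1% were. In control cells Arg1 was higher without overlap (13.1% of all genes) and Chil3 was lower (13.8%). Over both genotypes 0 of 9 genes separated the 4 elastic from the 4 viscous libraries, where 2.07% of all genes were higher and 1.66% lower. The median log2 fold change of the 9 genes was −0.12 in Jak2 V617F and 0.14 in control cells, against −0.01 and 0.00 over all genes. Without the control pair numbered W1 the median in control cells turned to −0.11.

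Arg1 in elastic over viscous matrix stood at a log2 fold change of 0.13 in Jak2 V617F cells (95% interval −0.57 to 0.83, edgeR adjusted p = 1) and of 0.69 in control cells, a 1.62-fold difference (SE 0.29, 95% interval −0.01 to 1.40, unadjusted p = 0.0526, adjusted p = 0.985). Chil3 was 2.11-fold lower in elastic matrix in Jak2 V617F cells (−1.08, SE 0.55, 95% interval −2.40 to 0.24, edgeR adjusted p = 1) and 1.52-fold lower in control cells (−0.60, 95% interval −1.91 to 0.71, adjusted p = 0.985). Without the Jak2 V617F library numbered J2 in viscous matrix the value of Chil3 in Jak2 V617F cells was 0.02. Clec10a stood at −0.79 in Jak2 V617F cells (95% interval −1.94 to 0.36) and 0.30 in control cells (−0.85 to 1.44). Pdcd1lg2 differed little, at −0.12 in Jak2 V617F cells (95% interval −0.71 to 0.46) and −0.31 in control cells (−0.90 to 0.28), so a 2-fold matrix effect lies outside both of its intervals. For Mrc1, Retnla, Mgl2, Tgm2 and Alox15 the intervals reached beyond 1 log2 unit in both directions in each genotype. This fit pools the spread over the 4 groups and takes no account of the title number. It thus excluded a 2-fold matrix effect of neither sign for these genes. The SE of Mrc1 was 1.45 in Jak2 V617F cells, where the 2 libraries differed 1.09-fold in elastic and 1.20-fold in viscous matrix. It was 1.44 in control cells, where they differed 16.8- and 19.8-fold.

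**Figure D4:**
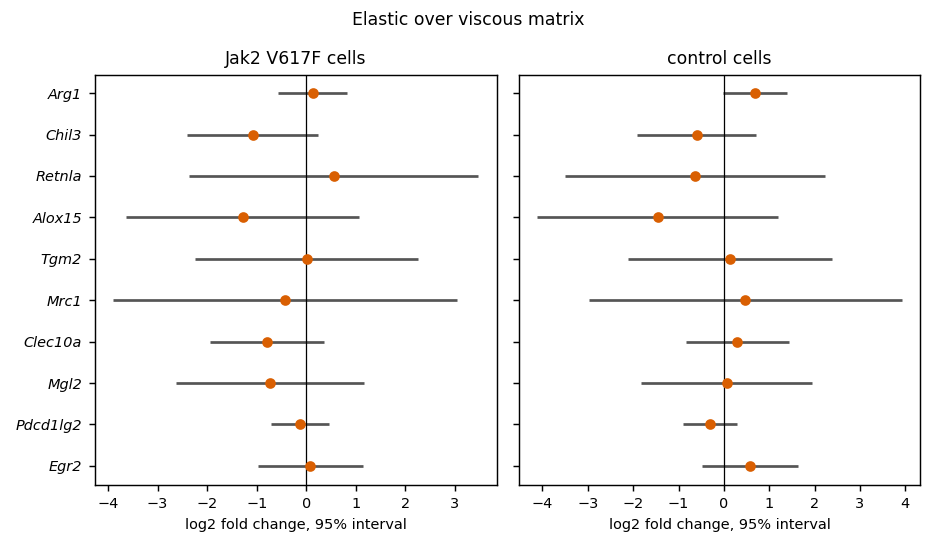
Log2 fold change of elastic over viscous matrix (points) with unadjusted 95% intervals (lines) for the 10 genes in Jak2 V617F cells and in control cells, from edgeR's fit to all genes. Every interval includes 0. They are narrowest for Pdcd1lg2 and Arg1 and widest for Mrc1.

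The difference between the matrix effects of the genotypes was tested as an interaction. edgeR called 0 of 9 genes and 0% of all genes, and at an unadjusted p under 0.05 it gave 0 of 9, against 1.72% of all genes. DESeq2 called 0 of 9, against 0.0135% of all genes. The largest departure by p was that of Clec10a, with −1.08 for the effect in Jak2 V617F cells less the effect in control cells (SE 0.68, 95% interval −2.70 to 0.54, unadjusted p = 0.155, edgeR adjusted p = 1.00). For Arg1 the difference was −0.56 (95% interval −1.55 to 0.43) and for Pdcd1lg2 0.19 (95% interval −0.65 to 1.02). All these values took no account of the title number. With the number as a fixed block, edgeR called 0 of 9 genes and 0 of all genes. At an unadjusted edgeR p under 0.05 that block gave 2 of 9, for which the share of all genes is not given here.

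The 10 genes did not share 1 pattern over the libraries. Likeness was measured as the root mean square difference of log2 CPM over the 8 libraries after centring each gene at its own mean, so that a small value means like profiles. The closest pair among the 10 was Arg1 and Egr2, at 0.36. Arg1's own root mean square departure from its mean was 0.33, less than that distance. Of the 12245 other genes with a mean of at least 1 CPM, 4198 were closer to Arg1 than Egr2 was. Mrc1 was closest to Retnla among the 10, at 0.85 where its own root mean square departure from its mean was 1.70, and 78 other genes were closer. Tgm2 was closest to Alox15, at 0.83 against a departure of 1.26, with 367 other genes closer. Alox15 held few counts, and its W1 value in elastic matrix depends on the prior count. It also passed the low-count filter through the Jak2 V617F libraries, so nothing is read from this distance. Of the other genes, ENSMUSG00000027435 was nearest to Mrc1 (0.37) and ENSMUSG00000044701 nearest to Tgm2 (0.30). Without the control pair numbered W1 other IDs took both places, Tgm2 became the closest of the 10 to Mrc1 (0.23), and the departure of Mrc1 was 0.37. Over the 8 libraries 1.54% of all tested genes varied more than Mrc1, 3.73% more than Retnla and 4.15% more than Tgm2, against 28.6% for Pdcd1lg2 and 28.8% for Egr2.

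Position and annotation were read from RefSeq on GRCm38.p6 by symbol, and all 10 genes are protein-coding. The lectin genes Mgl2 (chr11:70130125-70137542) and Clec10a (chr11:70166623-70170836) are neighbours, with 29080 bases and 0 protein-coding genes between them. Alox15 (chr11:70344147-70390538) lies 173310 bases beyond Clec10a, past 7 protein-coding genes. Arg1 (chr10:24915207-24927470) and Egr2 (chr10:67534469-67542188) share chromosome 10, and Mrc1 (chr2:14229414-14332023) and Tgm2 (chr2:158116405-158146392) share chromosome 2. Chil3 is at chr3:106147554-106167564 and Retnla at chr16:48842609-48844461.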

How the data were processed

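The authors deposited whole-number counts per Ensembl gene ID, not normalized. GRCm38, Salmon and DESeq2 are named per the submitters' processing notes. How estimated counts became whole, the versions and the use of strand are not given in the sources used here. In all, the 8 files of single libraries matched the series table value for value. The smallest sum of an ID was 10. The table pairs no ID with a name, and 0 of 49997 reference genes carried an Ensembl ID. The 10 symbols came with the list of IDs. Lists of related genes and cell type markers were therefore not analysed here. The genes and lists were chosen with earlier results of these data known.

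Counts were fitted with edgeR 4.0.16 (R 4.3.3): filterByExpr by group (14785 IDs), TMM, 4 group means over 8 libraries, quasi-likelihood test, two-sided. For genotype over both matrices, counts were summed per title number (15239 IDs). SE came from the test statistic. Log2 CPM used a prior count of 2. All 10 genes were named, and the nearest other IDs were chosen by the rule given with them. Alternatives were scaling by upper quartile or by DESeq2's size factors, testing of all IDs, at least 50 counts in 2 libraries, DESeq2 1.42.0, limma-voom (limma 3.58.1), libraries or title numbers left out, only the 4 libraries compared, the title number as a block, and an average over libraries. Figures used matplotlib 3.10.9.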

Additional observations from a re-analysis of the deposited data

How the results depend on the processing

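With 2 libraries per group and 1 control pair apart, the genotype calls of edgeR depended on which control number was kept. A fixed block by number could be fitted in no genotype comparison, since each number lies in 1 genotype. As a random replicate block it gave 0 calls over all genes in each genotype comparison, with Clec10a at −1.79 in elastic and −0.88 in viscous matrix, Pdcd1lg2 at 0.85 and 0.72, Mrc1 at −2.08 and −1.05 and Tgm2 at 1.80 and 1.74. Lists of other genes and promoter motifs were not run. The calls of the 9 genes other than Alox15 were 0 in every comparison under both other scalings, both other filters and limma-voom. DESeq2 called 1 of the 9, Clec10a in elastic matrix. At 50 counts in 2 libraries Alox15 was tested on sums only.

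Over all genes, DESeq2 called 35 for matrix in Jak2 V617F cells, 35 in control cells, 134 averaged over genotypes, 2 for the difference, 44 for genotype in elastic matrix, 61 in viscous matrix and 106 on sums. For matrix averaged over genotypes edgeR called 1 ID when all IDs were tested and 1 under the stricter minimum, and in Jak2 V617F cells 1 on only the 4 libraries compared. The genotype comparison as an average over 8 libraries gave 2. The title numbers were not taken as pairs in the main fits, because what they stand for is not stated. Deviations of same-numbered libraries correlated at −0.089 in Jak2 V617F and 0.53 in control cells. The random replicate block had a correlation of 0.38. With the number as a replicate block, the averaged matrix comparison gave 5 (fixed) and 2 (random) and control cells 1 (random), none of them among the 10 genes. Under edgeR's fixed block Mrc1 stood at −0.42 in Jak2 V617F cells (edgeR unadjusted p = 0.0176, adjusted p = 0.566) and at 0.58 in control cells (edgeR unadjusted p = 0.00469, adjusted p = 0.34). Its edgeR unadjusted p-values without the block were 0.777 and 0.754.

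With 1 library or number left out, edgeR called 0 to 1 genes for matrix in Jak2 V617F cells, 0 to 1 in control cells, 0 to 2 averaged, 0 to 1206 for genotype in elastic matrix, 0 to 771 in viscous matrix and 0 to 2664 on sums. Of the 10 genes it called 0 to 6, 0 to 5 and 0 to 8 in the 3 genotype comparisons, Alox15 included in 6 and 8. All edgeR calls of these genes came without W2, a fit whose control cells are the W1 libraries, with Mrc1 at −4.09 in elastic (edgeR adjusted p = 0.00418) and −3.21 in viscous matrix (0.0096). Without W1 the Mrc1 values were −0.04 in elastic and 1.08 in viscous matrix.

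No value was called under a setting that turned its sign. Ranges of log2 fold changes with 1 library or number left out follow. Matrix in Jak2 V617F cells: Arg1 −0.0178 to 0.29, Chil3 −1.70 to 0.0237, Retnla −0.0037 to 1.49, Tgm2 −0.10 to 0.13, Egr2 −0.0594 to 0.23. Matrix in control cells: Mrc1 −2.67 to 3.85, Mgl2 −1.34 to 1.08, Pdcd1lg2 −0.65 to 0.14, Retnla −1.83 to 2.62, Tgm2 −1.79 to 1.68, Clec10a −0.66 to 0.87, Egr2 −0.36 to 1.13. Averaged matrix: Mrc1 −1.55 to 1.71, Pdcd1lg2 −0.39 to 0.0068, Retnla −0.64 to 1.59, Mgl2 −1.04 to 0.17, Tgm2 −0.89 to 0.84, Clec10a −0.73 to 0.0412, Egr2 −0.14 to 0.61. Difference of matrix effects: Mrc1 −4.28 to 2.25, Pdcd1lg2 −0.26 to 0.52, Alox15 −0.79 to 5.33, Retnla −2.07 to 2.38, Tgm2 −1.67 to 1.80, Mgl2 −1.81 to 0.61, Egr2 −1.06 to 0.44, Chil3 −1.10 to 0.62. Genotype in elastic matrix: Retnla −1.56 to 0.28, Mgl2 −1.80 to 0.31, Egr2 −1.22 to 0.28. Genotype in viscous matrix: Arg1 −0.0814 to 0.53, Retnla −3.03 to 1.15, Mrc1 −3.22 to 1.08, Mgl2 −1.03 to 0.71, Egr2 −0.37 to 0.0832, Chil3 −0.0836 to 1.64. Genotype on sums: Arg1 −0.27 to 0.0699, Retnla −2.36 to 0.57, Mrc1 −3.61 to 0.51, Mgl2 −1.25 to 0.57, Egr2 −0.81 to 0.18.

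Under limma-voom, the fixed and the random replicate block, further values changed sign. In control cells Retnla, at −0.63 by edgeR without a block, gave 0.15, 0.13 and 0.17, Mgl2 −0.0696, −0.0765 and −0.0728 and Tgm2 −0.0584, −0.0242 and −0.0487. Averaged over genotypes Retnla, at −0.0392 without a block, gave 0.42, 0.41 and 0.43 and Tgm2 −0.0228, −0.0061 and −0.018, and for the difference Tgm2 gave 0.0712, 0.0362 and 0.0613. The cause was not tested.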
